A study of Rattus norvegicus with 6 samples.

Results

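The neuregulins Nrg1, Nrg2, Nrg3 and Nrg4 and the ERBB receptors Egfr, Erbb2, Erbb3 and Erbb4 form a ligand and receptor family of 8 genes, taken by gene symbol because of their part in cardiomyocyte growth and not by any measured value. Each symbol matched 1 entry, so 8 of the 22427 genes named in any of the 4 libraries are described here. The libraries come from chromatin immunoprecipitation with an antibody to H3K27me3, the trimethylated lysine 27 of histone H3 that Polycomb complexes place on silenced genes. The cells were primary cardiomyocytes of newborn Sprague Dawley rats, cultured with 10% serum. They were given phosphate-buffered saline (PBS; libraries control 1 and control 2) or 5 mM α-ketoglutarate (α-KG; libraries α-KG 1 and α-KG 2) for 24 h. The labels do not say whether the replicates were separate cultures or how pure the cultures were, and 2 further samples, titled as inputs with IgG as the antibody, were not analysed here. The deposited values say of each gene only whether it has a peak, so it is listed or not listed in a library. The height, width and position of the peak and the read depth are unknown, and a missing listing can mean either no mark or a signal too weak to be called.

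Neuregulins are growth factors with an EGF-like domain that binds ERBB3 or ERBB4. Ligand binding brings the receptors together in pairs, with ERBB2 as the preferred partner although it binds no known ligand, and the pair signals through the PI3K-AKT and RAS-ERK branches. In the heart, NRG1 comes largely from endothelial cells, and ERBB2 and ERBB4 on cardiomyocytes are needed for the growth of the heart wall and for cardiomyocyte proliferation around birth. α-KG is a cosubstrate of the demethylases that remove H3K27me3, and the design compares cells with and without added α-KG.

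All 4 receptor genes carried a peak in every library. Egfr (ENSRNOG00000004332), the receptor of EGF, was listed in both controls and both α-KG libraries. The same held for Erbb2 (ENSRNOG00000006450), the partner without a ligand, for Erbb3 (ENSRNOG00000004964), a neuregulin receptor with little kinase activity of its own, and for Erbb4 (ENSRNOG00000014248), a neuregulin receptor with an active kinase. Among the ligands, Nrg1 (ENSRNOG00000010392), the main neuregulin of the heart, was listed in all 4 libraries as well. So were Nrg2 (ENSRNOG00000019093) and Nrg3 (ENSRNOG00000033894), both known mainly from the nervous system. Nrg4 (ENSRNOG00000015149), a neuregulin known best as a factor secreted by brown fat, was listed in control 1, control 2 and α-KG 1 and was not listed in α-KG 2. Each of the 8 genes was thus in both controls and in at least 1 α-KG library. Of all 16005 genes in both controls, 516 (3.22%) were in neither α-KG library, so such overlap was usual.

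**Figure D1:**
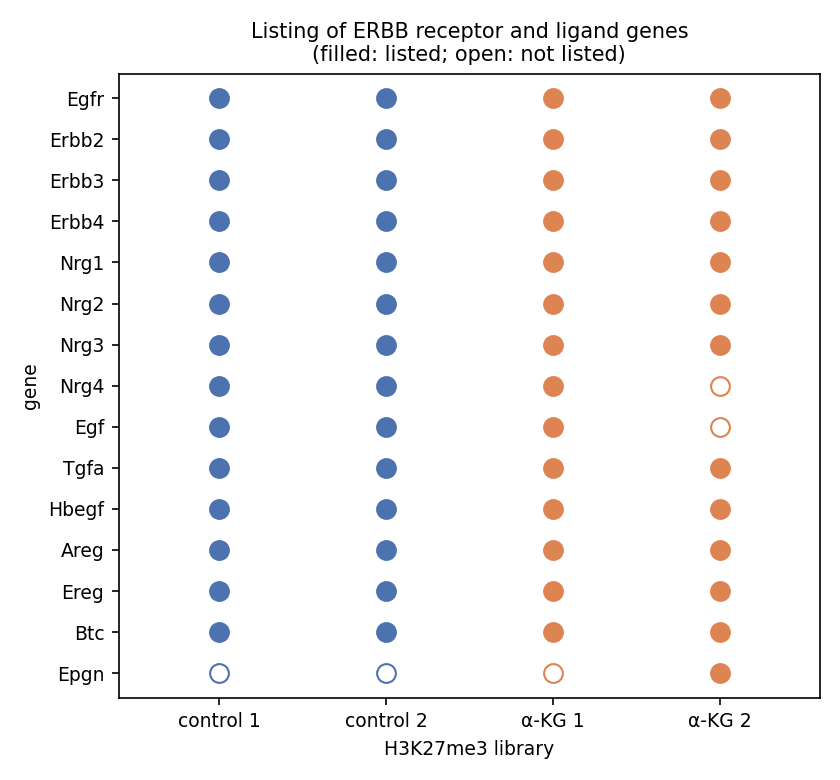
Listing of the 4 receptor genes, the 4 neuregulin genes and 7 other genes for EGF-family ligands (rows) in the 4 H3K27me3 libraries (columns, control in blue and α-KG in orange), where a filled circle is a listed gene and an open circle one that is not listed. Nrg4 and Egf lack a listing in α-KG 2 only, Epgn has one in α-KG 2 only, and the other 12 genes are listed throughout.

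Counted by library, control 1 and control 2 each listed 8 members, α-KG 1 listed 8 and α-KG 2 listed 7. The control mean was 8 ± 0 and the α-KG mean 7.5 ± 0.707 (SD, n = 2 libraries per group). Their difference of -0.5 genes came from Nrg4 in 1 library. It was 0 without α-KG 2. With 2 libraries against 2, an exact two-sided permutation test cannot give a p below 0.33, so no member count in this design can pass 0.05. None of the 8 genes was lost, meaning named by each control and absent from each α-KG library, and 3.22% of all genes listed in both controls were. None was gained, the reverse pattern, and 4.48% of all genes that the α-KG libraries shared were. With α-KG 1 left out, Nrg4 would count as lost, as would 8.55% of all genes in both controls.

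Listing in every library was common in the series as a whole. Of all 22427 genes, 62.8% were in all 4 libraries, beside 7 of the 8 members. Among 49 other receptor tyrosine kinase genes, 44 (89.8%) were. The pattern of Nrg4, present in every library but α-KG 2, was shared by 853 genes or 3.8% of all. Its absence came in the library with the longest list, since α-KG 2 named 19181 genes and the other libraries named 17245 to 18442. Of the genes that the other 3 libraries shared, α-KG 2 lacked 5.71%, control 1 7.25%, control 2 2.63% and α-KG 1 3.82%. Each library listed some marker genes of other cell types, whose part in these listings was not tested. Of 10 endothelial genes, 6, 10, 8 and 9 were listed in the order control 1, control 2, α-KG 1, α-KG 2. Of 10 fibroblast genes, 9 had an entry, with 9, 7, 6 and 8 listed in that order, and Col1a2 had none. All 8 Schwann and neural crest genes were listed in each. Of 19 cardiomyocyte marker genes, 16 had an entry, with 12, 13, 12 and 13 listed in the same order. Tnnc1, Myh6 and Myl3 had none. Of all genes, 76.9%, 82.2%, 80.8% and 85.5% were listed in that order. A mark of silencing at a marker gene does not show which cells are in the culture, so the labelled cell type could not be checked from these lists.

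The sequence just before the start of each gene was compared next, because promoters rich in CG pairs are where Polycomb complexes are known to gather. RefSeq promoter sequences of assembly GRCr8 were at hand for Egfr, Erbb2, Erbb4, Nrg2, Nrg3 and Nrg4. Of each, the 250 bases before the annotated start were used. The build named for the data is another one (rn6), and the positions of the peaks are unknown, so these windows do not mark where the H3K27me3 signal lay. The sequences chosen are those of Nrg4 (chr8:64555174-64555423, minus strand), the 1 member whose listing varied, and Egfr (chr14:95378376-95378625, plus strand), which had the same number of CG pairs and was listed throughout. Nrg3 (chr16:15374108-15374357, minus strand) and Erbb4 (chr9:78045607-78045856, minus strand) had the most CG pairs of the 6. All are written 5′ to 3′ in GRCr8, with every CG pair in capitals.
Nrg4: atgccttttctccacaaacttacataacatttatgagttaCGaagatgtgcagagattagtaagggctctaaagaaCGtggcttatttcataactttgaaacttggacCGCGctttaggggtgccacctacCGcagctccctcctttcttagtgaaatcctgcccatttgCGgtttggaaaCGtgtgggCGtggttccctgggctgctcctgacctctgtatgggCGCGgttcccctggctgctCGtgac
Egfr: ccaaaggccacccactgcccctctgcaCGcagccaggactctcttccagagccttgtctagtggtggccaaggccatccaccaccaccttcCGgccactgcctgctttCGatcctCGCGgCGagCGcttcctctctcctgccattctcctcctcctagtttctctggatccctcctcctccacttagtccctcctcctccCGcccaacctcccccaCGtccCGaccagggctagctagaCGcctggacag
Nrg3: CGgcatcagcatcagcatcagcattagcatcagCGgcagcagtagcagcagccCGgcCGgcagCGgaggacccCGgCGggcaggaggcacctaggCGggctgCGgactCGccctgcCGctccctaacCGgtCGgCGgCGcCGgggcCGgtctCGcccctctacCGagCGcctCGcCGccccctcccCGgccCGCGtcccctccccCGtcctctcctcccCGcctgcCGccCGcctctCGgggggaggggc
Erbb4: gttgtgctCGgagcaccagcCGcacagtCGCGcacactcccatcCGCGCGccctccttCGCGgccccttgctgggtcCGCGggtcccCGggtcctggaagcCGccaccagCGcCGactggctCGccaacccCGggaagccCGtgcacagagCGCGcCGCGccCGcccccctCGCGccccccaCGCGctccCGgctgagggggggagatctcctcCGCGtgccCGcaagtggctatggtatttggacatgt

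CG pairs, which read the same on both strands, numbered 31 in the Erbb4 window, 30 in Nrg3, 19 in Erbb2, 12 in Nrg2 and 11 in both Egfr and Nrg4. Over all 33469 RefSeq promoters of this length the median was 5, and 92.2% held at least 1. All 6 members lay above the median of all promoters, with 95.3% of promoters below Erbb4 and 66.4% below Egfr and Nrg4. Nrg4 and Egfr differed in base composition, as G and C made up 50.4% of its window and 63.6% of the Egfr window. The range over the other members with a sequence was 60.4% in Nrg2 to 77.2% in Nrg3. Promoters of genes in all 4 libraries had a median of 16 CG pairs (quartiles 7 and 24, 7054 promoters). Those of genes in every library but α-KG 2 had a median of 4 (quartiles 1 and 12, 260 promoters). Over the promoters of genes in any library the median was 14, and 3 of the 6 members, Nrg4, Egfr and Nrg2, were below it. Egfr and Nrg2, with 11 and 12 pairs beside 11 in Nrg4, were listed throughout. Whether CG pairs bear on the missing listing of Nrg4 was not tested. These values describe promoters and were not tested, since genes are not replicates.

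**Figure D2:**
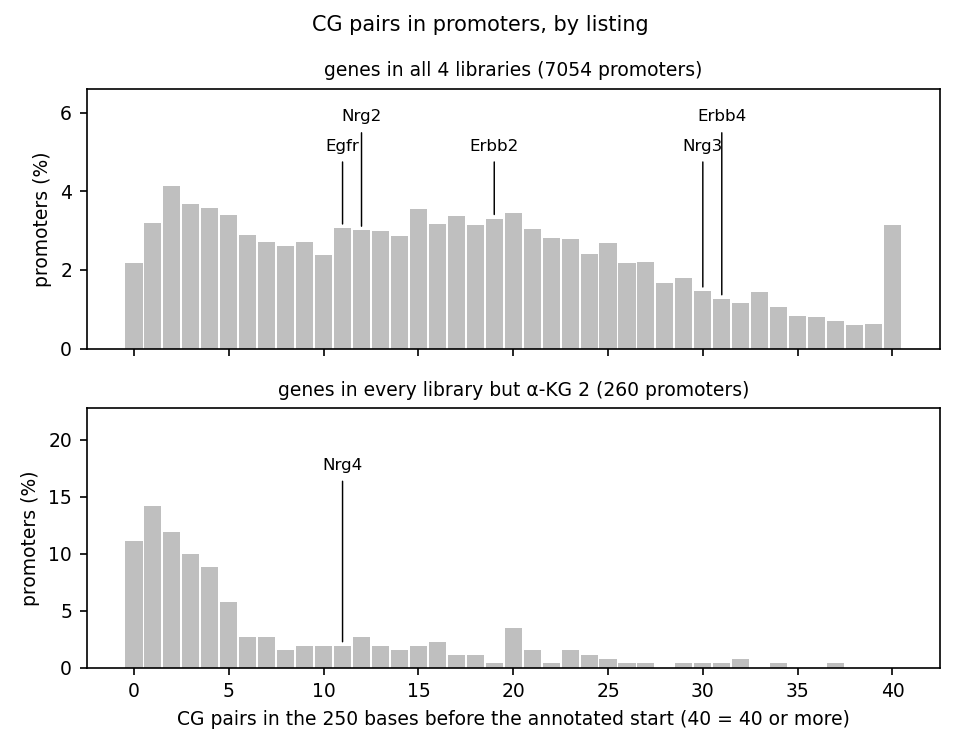
Number of CG pairs in the 250 bases before the annotated start (x axis, with 40 standing for 40 or more) against the share of promoters in percent (y axis), for 7054 genes listed in all 4 libraries (upper) and 260 genes listed in every library but α-KG 2 (lower), with the members marked. Nrg4, at 11 pairs, sits to the right of most of the lower class, whose median is 4, and Erbb4 and Nrg3 sit in the right tail of the upper one.

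The protein domains that the deposited lists give for each gene set the receptors apart from the ligands. All 4 receptors had the same set of 10 domain names, and no other entry had that set. The receptor L domain and the furin-like cysteine-rich domain, which lie in the part outside the cell, were each named for 7 genes. These were the 4 ERBB receptors and the insulin receptor family genes Insr, Igf1r and Insrr, and 7 of 7 were in all 4 libraries. The broader protein kinase domain was named for 468 genes, of which 375 (80.1%) were in all 4. The C-terminal domain related to that of neuregulin 1 was named for Nrg1, Nrg2 and Nrg3 alone, all listed throughout. Nrg4 was annotated with the EGF-like domain and nothing else, a set it shared with the ligand genes Btc, Areg, Ereg, Epgn, Tgfa and Hbegf and with Atraid and Muc3. Of these 9 genes, 5 were in all 4 libraries, and Nrg4 alone had its pattern. Epgn and Atraid were in α-KG 2 alone, and Muc3 had the gained pattern. Over the 213 genes annotated with an EGF-like domain, 163 (76.5%) were in all 4 libraries. The 213 annotated genes included Nrg1, Nrg2 and Nrg4 but not Nrg3, so the deposited domain names are not complete.

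Of the genes next to the members that had an entry, 7 of 12 (58.3%) were listed in all 4 libraries, near the 62.8% of all genes. The deposited lists do not say how peaks were assigned, so 1 peak could count for neighbouring genes. In the RefSeq gene order of GRCr8, the 8 members have 16 nearest protein-coding neighbours, of which 4 had no entry in any library. Both neighbours of Nrg2, Psd2 and Pura, were listed throughout. Neither neighbour of Erbb2 was, since Pgap3 was in control 2 and α-KG 2 and Mien1 in α-KG 2 alone. Erbb3 lay between Pa2g4, in α-KG 2 alone, and the ribosomal protein gene Rps26, listed throughout. Egfr lay between Fbxo48, listed throughout, and Sec61g, a subunit gene of the protein channel of the endoplasmic reticulum, which had the gained pattern. Nrg4 lay between Tmem266, listed in all 4 libraries including α-KG 2, and Fbxo22, which α-KG 1 lacked and α-KG 2 listed. The gap at Nrg4 in α-KG 2 was thus not shared by either neighbour. Cps1 beside Erbb4 and Fut10 beside Nrg1 were listed throughout, and the genes on their other sides and both neighbours of Nrg3 had no entry.

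**Figure D3:**
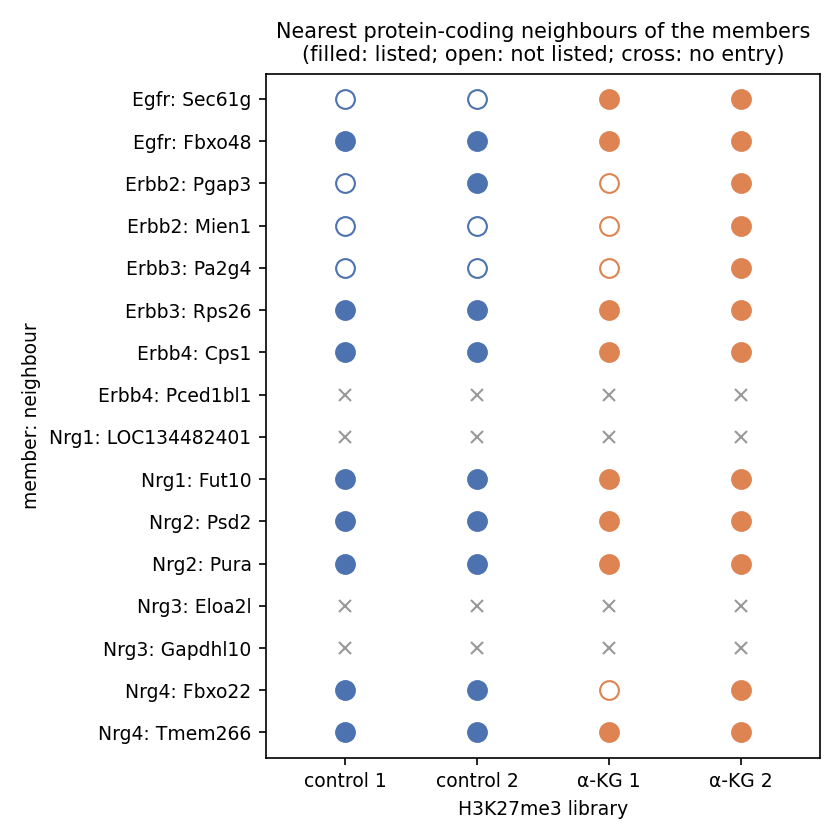
Listing of the nearest protein-coding gene on either side of each member (rows, written as member and neighbour) in the 4 libraries (columns, control in blue and α-KG in orange). Filled circles are listed genes, open circles genes that are not listed there, and crosses the 4 neighbours without an entry in any library; 7 of the 16 rows are filled throughout.

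Genes of the wider ERBB pathway, from other ligands and negative regulators to downstream branches, were also listed mostly in every library. Those for ligand shedding and processing were the exception, with 2 of 8. The 7 lists of this wider pathway hold 86 genes, of which 84 had an entry, Hras under its older symbol HRAS1, and Adam17 and Shc1 had none. Of the 84, 61 (72.6%) were in all 4 libraries and 23 (27.4%) were not, beside 62.8% and 37.2% of all genes. Counted by library, control 1 listed 64, control 2 listed 72, α-KG 1 listed 72 and α-KG 2 listed 80. The control mean was 68 ± 5.66 and the α-KG mean 76 ± 5.66 (SD, n = 2 libraries per group). Their difference of 8 genes equalled the difference of 8 between the replicate 2 and replicate 1 libraries, and it ranged from 4 without control 1 or without α-KG 2 to 12 without control 2 or without α-KG 1. In all genes together the libraries were ordered in a similar way, at 76.9%, 82.2%, 80.8% and 85.5% of all entries.

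**Figure D4:**
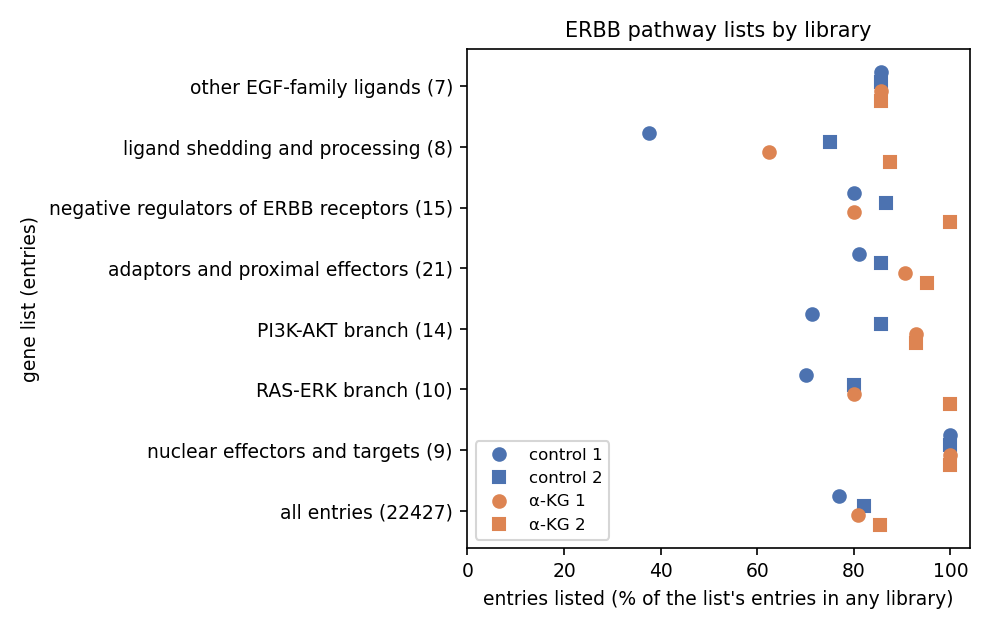
Percent of each pathway list's entries (x axis) that were listed in each library, with the number of entries in brackets (y axis), controls in blue, α-KG in orange, replicate 1 as circles and replicate 2 as squares. The nuclear effectors sit at 100% in every library, and the shedding and processing genes run from 37.5% in control 1 to 87.5% in α-KG 2.

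Among the other EGF-family ligands, which bind EGFR or ERBB4, Tgfa, Hbegf, Areg, Ereg and Btc were in all 4 libraries. Egf had the pattern of Nrg4, absent from α-KG 2 alone, and Epgn (epigen) was in α-KG 2 alone. Genes for ligand shedding and processing had the lowest share in all 4 of the 7 lists, with 2 of 8, Bace2 and Rhbdf1. Adam10, a sheddase of EGF-family ligands, was in every library but α-KG 2, and Adam19 and the inactive rhomboid gene Rhbdf2 were in control 2 and α-KG 2. Bace1, the protease that cleaves neuregulin 1 and serves its signal in myelination, had the gained pattern. Ncstn, a subunit gene of γ-secretase, was in α-KG 2 alone. Identity of pattern over the 4 libraries was the measure of likeness to Nrg4. Egf and Adam10 were the 2 of the 84 pathway genes (2.38%) that had it, beside 3.8% of all genes. None of the 49 other receptor tyrosine kinase genes had this pattern. These shares are of few genes and were not tested.

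Negative regulators of the receptors were in all 4 libraries for 12 of 15, among them Errfi1, an inhibitor that binds the ERBB kinase domain, Lrig1, and the ubiquitin ligase genes Cbl and Cblb. Rnf41, the ubiquitin ligase that lowers ERBB3, and Socs4 were in α-KG 2 alone, and Spry4, an inhibitor of RAS-ERK signalling, was in control 2 and α-KG 2. Of 21 adaptors and proximal effectors, 16 were in all 4, including Crk, Gab1 and Gab2. Stat3, a transcription factor activated by many receptors, had the gained pattern. Shc4 was missing from control 1 and Nck1 from control 2, Crkl was in α-KG 2 alone, and Ptk2, which encodes focal adhesion kinase, was in control 2 alone.

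In the PI3K-AKT branch 10 of 14 genes were in all 4 libraries, the kinase genes Akt1 and Akt2 among them. Rps6kb2, a ribosomal S6 kinase gene, had the gained pattern. Mtor was missing from control 1, Pik3r3 was in control 2 and α-KG 2, and Pik3ca, the catalytic subunit gene p110α, was in α-KG 1 alone. In the RAS-ERK branch 7 of 10 were in all 4, with Araf and Braf as examples, while Map2k2 was missing from control 1, and Nras and Map2k1 were in α-KG 2 alone. All 9 nuclear effectors and targets, from the immediate early genes Fos, Jun, Egr1 and Myc to Elk1, Yap1, Wwox, Tab2 and Ncor1, were in all 4.

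Over the 7 lists, 0 of the 63 genes in both controls were lost and 3 of the 69 that the α-KG libraries shared, Bace1, Stat3 and Rps6kb2, were gained, beside 3.22% and 4.48% of all genes. These shares are of few genes and carry no test. Without control 2 the gained genes numbered 7 of 69 (10.1%), with Shc4, Mtor and Map2k2 among those added, beside 11.2% of all genes. Without α-KG 1 they numbered 10 of the 80 genes in α-KG 2 (12.5%), beside 11.9% of all. Egf and Adam10 then counted as lost, 2 of 63 (3.17%) beside 8.55% of all. Without control 1 Ptk2 counted as lost, 1 of 72 (1.39%) beside 5.56% of all. Genes in α-KG 2 alone made up 7 of the 84 (8.33%), beside 6.96% of all entries.

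**Figure D5:**
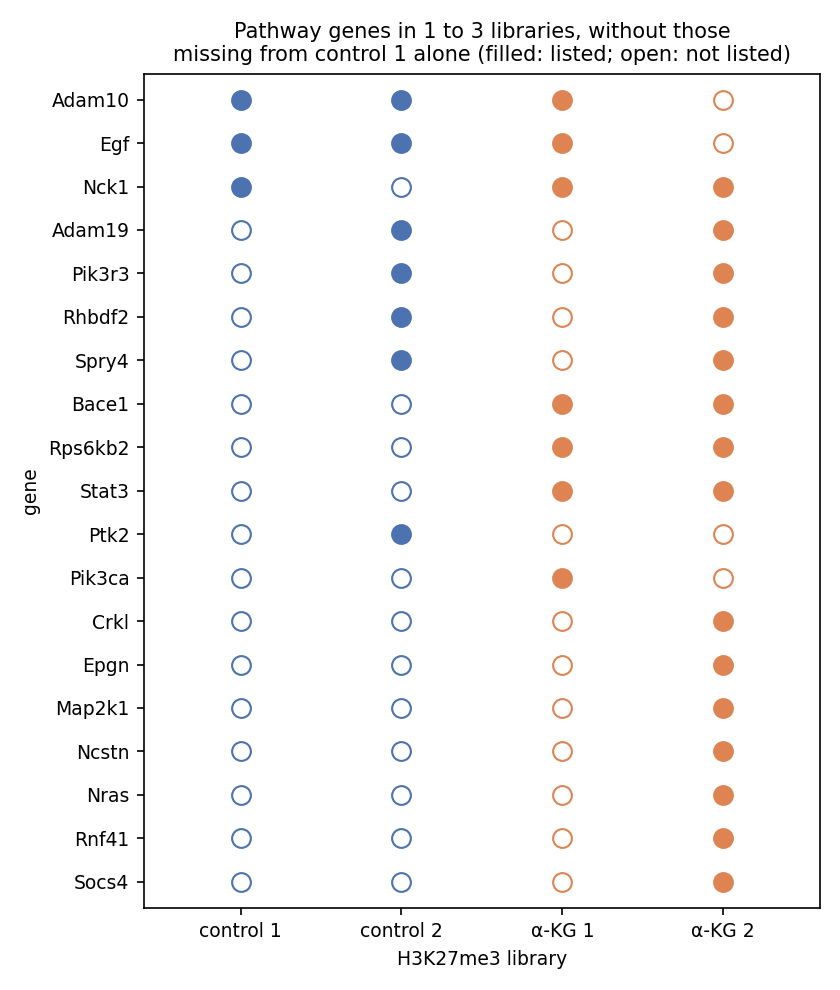
Listing of 19 pathway genes found in 1 to 3 libraries (rows), those missing from control 1 alone left out, by library (columns, control in blue and α-KG in orange), with filled circles for listed genes and open circles for those not listed. Bace1, Rps6kb2 and Stat3 are filled in both α-KG libraries only, Adam10 and Egf are open in α-KG 2 only, and the 7 lowest rows are filled in α-KG 2 only.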

How the data were processed

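H3K27me3 peaks had been turned by the authors into 1 list of genes per library, without a header. The deposited lists give an Ensembl gene ID, a symbol and protein domain names, and no count, score or position. Per the submitters' processing notes, the tools were CASAVA, BWA and MACS2 and the genome build was rn6, with no role or version stated. How an input was used, where the peak threshold lay and how peaks were assigned to genes is not given in the sources used here. Read depth is unknown for every library, so no interval that needs it was computed.

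Groups and replicate numbers came from the labels. The lists were joined by gene ID in Python 3.11.15 with pandas 2.3.3 and numpy 2.4.6, and figures were drawn with matplotlib 3.10.9. Members were matched by symbol, ignoring case. Pathway genes and neighbours could also match by an older symbol in RefSeq (GRCr8) that no other gene uses. GRCr8 differs from rn6 and served for names, gene order and promoter sequences, of which 10878 matched 1 entry by symbol. The members were taken for their role and by no measured value. They, the gene lists and the counts were chosen with earlier results of these data known. The genes named are the members, their neighbours, the genes with a member's domain set, the pathway genes gained, those not in all 4 libraries, and the first by symbol among those in all 4 in the longer lists. The genes in all 4 named from the other lists were chosen after their values were seen. A few genes under this rule are counted but not reported by name. Counting steps were tested on simulated data. As alternatives, each library was left out in turn, differences were taken within replicate numbers, and symbols were counted in place of entries.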

Additional observations from a re-analysis of the deposited data

How the results depend on the processing

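Without 1 library at a time, the difference in listed members ranged from -1 to 0 genes, and the difference in listed pathway genes ranged from 4 to 12. Members lost numbered 0 to 1 (Nrg4, without α-KG 1) and members gained 0 in each of these settings. Pathway genes lost numbered 0 to 2 and gained 4 to 10, because a pattern over 3 libraries is easier to meet. Over all genes the same settings gave 904 to 1369 lost and 1109 to 2290 gained. With the replicate block, which takes differences within each replicate number, the differences were again -0.5 for members and 8 for pathway genes. In a design with 2 libraries per group these means are equal by construction, so the block could not change them. The lost and gained counts make no use of replicate numbers. They therefore stayed at 0 lost members, 0 lost pathway genes and 3 gained pathway genes. The replicate numbers are not known to pair the libraries, because the labels do not say so. The deviations of same-numbered libraries from their group means had a correlation of 0.0478 over genes. With 2 pairs this cannot settle the question, and the correlation leaves out any shift in list length. That shift, replicate 2 minus replicate 1, averaged 1129 genes, beside 807 for α-KG minus control. Counting symbols in place of entries changed none of the member or pathway values. For the members this was fixed, since each symbol matched 1 entry. Over all genes 347 were then lost (2.85%) and 564 gained (4.47%), against 516 (3.22%) and 729 (4.48%) by entry. A stricter peak threshold was not run, since the lists used here hold no scores. Each gene has 4 yes or no values, and a change in peak strength at a gene listed throughout cannot be seen.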

Other observations

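Receptor tyrosine kinases outside the ERBB family were also listed widely. Of 49 such genes with an entry, control 1 and α-KG 1 each listed 45, control 2 listed 48 and α-KG 2 listed 49, and Ros1 had no entry. The 5 genes not in all 4 libraries, named after their values were seen, included 2 receptors for angiopoietin signalling in endothelium. Of these, Tek was in control 2 and α-KG 2, and Tie1 was missing from control 1 alone. Flt1, a receptor for vascular endothelial growth factor, was missing from α-KG 1 alone. Mst1r, the receptor of macrophage stimulating protein, was in control 2 and α-KG 2, and the collagen receptor gene Ddr1 was in α-KG 2 alone. Of the 45 listed in both controls none was lost, beside 3.22% of all genes. Of the 45 that the α-KG libraries shared none was gained, beside 4.48% of all. These shares are of few genes and carry no test.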
